A study of Mus musculus with 2 samples.

Results

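The Clcn5 intronic miRNA cluster is a set of 5 microRNA (miRNA) genes, Mir532, Mir188, Mir362, Mir501 and Mir500, that lie together in the chloride transporter gene Clcn5 on the X chromosome of the mouse. They make up 5 of the 1973 miRNA genes counted in the deposited tables. The members were chosen by their annotated position in Clcn5, at a time when their own-strand levels in both libraries were already known, so levels and differences between the animals are given here as a description, with no test. All 5 identifiers matched the annotation with the same version.

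The animals were B6NCrl mice taken at birth (postnatal day 0), with no treatment or mutation in the labels. There were 2 MicroRNA-seq libraries of RNA under 30 nucleotides, each from a single hindbrain, of pup 1 (biological replicate 1) and of pup 3 (biological replicate 2). The labels name separate pups but give both the same donor identifier, and sex was not collected. Both libraries form 1 group, so the series holds no contrast between conditions, and the values open to comparison are the levels of the members and their spread between these pups.

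A miRNA is cut from a hairpin in a longer transcript, and the short strand that is kept guides the silencing complex to messenger RNAs, mostly through its seed, bases 2 to 8. miRNAs in an intron are commonly made from the transcript of their host gene. Clcn5 encodes the ClC-5 chloride/proton exchanger of endosomes, best known from the kidney, where its loss causes Dent disease in humans. In brain, miR-188-5p has been linked to dendritic spines through neuropilin-2 in rodent hippocampal neurons, and miR-501-3p to an AMPA receptor subunit in rodent dendrites. miR-532, miR-500 and miR-362 are known mostly from human cancer cells, where miR-532-5p represses RUNX3 and miR-362-5p and miR-500 repress CYLD.

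The hairpins are shown first because reads were counted per hairpin gene, without separating the arms. They are printed 5′ to 3′ in the direction of Clcn5 transcription, as listed by RefSeq for GRCm38.p6, on the minus strand of chromosome X, with the listed mature arms in capitals.
Mir532: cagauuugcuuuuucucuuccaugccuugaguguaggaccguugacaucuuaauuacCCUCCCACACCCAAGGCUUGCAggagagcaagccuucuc
Mir188: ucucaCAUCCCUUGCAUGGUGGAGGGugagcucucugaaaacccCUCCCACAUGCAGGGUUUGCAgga
Mir362: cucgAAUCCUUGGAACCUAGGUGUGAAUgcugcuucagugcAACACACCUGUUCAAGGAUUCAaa
Mir501: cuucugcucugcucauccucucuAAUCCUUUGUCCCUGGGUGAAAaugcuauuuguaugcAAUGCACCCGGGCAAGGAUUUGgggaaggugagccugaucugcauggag
Mir500: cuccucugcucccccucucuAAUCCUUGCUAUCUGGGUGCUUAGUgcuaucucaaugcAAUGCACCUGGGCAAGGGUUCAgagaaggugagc

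By seed, the mature miRNAs of the cluster fell into a few related sets, shown here with the seed in capitals because miRNAs with the same seed tend to share targets. RefSeq listed 9 mature sequences for the 5 genes, and these carried 7 seeds. It listed no 5p sequence for Mir532, so that arm is missing from the seeds and from the comparisons by seed below.
mmu-miR-500-3p: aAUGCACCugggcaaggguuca
mmu-miR-501-3p: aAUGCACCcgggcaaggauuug
mmu-miR-362-3p: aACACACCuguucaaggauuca
mmu-miR-500-5p: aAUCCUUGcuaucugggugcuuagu
mmu-miR-362-5p: aAUCCUUGgaaccuaggugugaau
mmu-miR-501-5p: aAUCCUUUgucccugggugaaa
mmu-miR-188-5p: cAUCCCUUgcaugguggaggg
mmu-miR-188-3p: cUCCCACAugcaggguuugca
mmu-miR-532-3p: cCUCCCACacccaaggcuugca

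miR-500-3p and miR-501-3p shared the seed AUGCACC, and miR-500-5p and miR-362-5p shared the seed AUCCUUG. Over their whole length miR-501-3p and miR-500-3p were identical at 18 of 22 bases, and the substitutions from miR-501-3p to miR-500-3p, counted from 1 at the 5′ end, were C9U, A18G, U21C and G22A. miR-362-3p matched miR-500-3p at 17 of 22 bases, and the substitutions C3U and A4G lay in its seed. miR-532-3p and miR-188-3p had different seeds but shared the 8 bases CUCCCACA, which start at base 2 in miR-532-3p and at base 1 in miR-188-3p. Mir532 and Mir188 thus resembled each other in the 3p arm. The 5p arm of Mir532 was not listed and was not compared. Mir500, Mir501 and Mir362 resembled each other in both arms.

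Outside the cluster, 2 of the mature mouse miRNAs in RefSeq carried one of these seeds. One was miR-329-3p of Mir329, a gene of the imprinted chromosome 12 region, which has the ACACACC seed of miR-362-3p. The other, miR-7061-3p, has the AUCCCUU seed of miR-188-5p, and its gene was not matched to a row of the tables by symbol. Mir329 stood at 688 CPM in pup 1, and in pup 3 at 546 CPM (CPM, counts on the gene's own strand per 1000000 such counts over all miRNA genes of the library). At 617 ± 100.4 CPM (SD, n = 2) its gene count was above that of Mir362 in both pups, though a gene count does not say which arm was read.

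No stretch of 16 or more bases of a member's hairpin occurred in any other of the 1005 mouse hairpins in RefSeq. The longest shared stretch was 14 bases, between Mir500 and Mir501. These tables assign no gene to a read with several matches in the genome, and how many mismatches the authors' alignment allowed is not given in the sources used here. A read shorter than a whole miRNA from the near-identical 3p arms of Mir500 and Mir501 could therefore be lost or misplaced, and the split between these members is less certain than their other values. Folded with RNAfold, the hairpins had minimum free energies of -28.5 kcal/mol for Mir362 to -46.9 kcal/mol for Mir501, the shortest hairpin at 65 bases and the longest at 109. Per base this was -0.346 for Mir532 and between -0.424 and -0.455 for the others.

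All 5 genes lay in the same intron. Coordinates are on GRCm38, the assembly behind the mm10 build of the deposited files. Clcn5 (ENSMUSG00000004317.14) spans chromosome X, 7153810 to 7319358, on the minus strand. In the direction of transcription Mir532 (ENSMUSG00000070139.1, 7248402 to 7248497) came first and Mir188 (ENSMUSG00000065398.1, 7247989 to 7248056) followed after a gap of 345 bases. After a further 5942 bases came Mir362 (ENSMUSG00000070100.1, 7241982 to 7242046), then after 630 bases Mir501 (ENSMUSG00000076251.1, 7241243 to 7241351), and after 3468 bases Mir500 (ENSMUSG00000070108.2, 7237683 to 7237774). The cluster covered 10815 bases.

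The intron that holds the cluster is 103648 bases long (7213011 to 7316658) and belongs to the long transcripts of Clcn5. It is intron 3 of the protein-coding transcript Clcn5-202, intron 2 of Clcn5-203 and intron 3 of the noncoding transcript Clcn5-204. The principal transcript, Clcn5-201, and the retained-intron transcript Clcn5-205 do not contain it. Clcn5-201 starts at 7188714, which is 49.0 kb beyond the last miRNA gene, Mir500. By this annotation, 3 of the 5 Clcn5 transcripts carry the miRNA hairpins, and all 3 start near the distal 5′ end of the gene, which lies 70.9 kb before Mir532. Clcn5 messenger RNA was not measured in these libraries, since they hold RNA under 30 nucleotides.

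**Figure D1:**
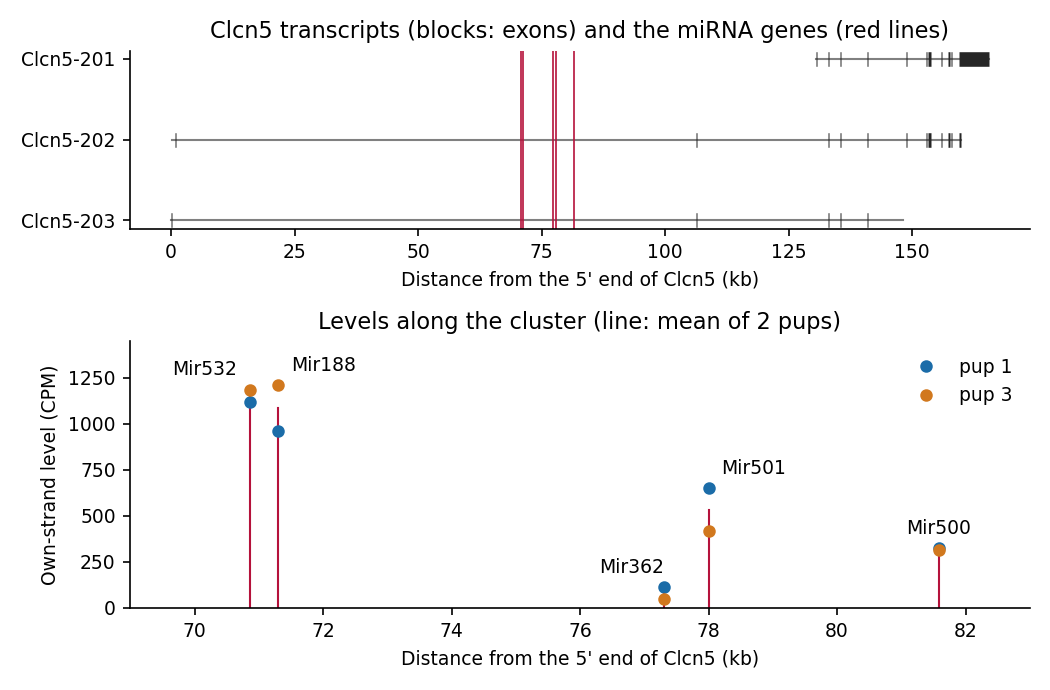
Position and level of the 5 miRNA genes in Clcn5. The upper panel shows 3 annotated transcripts against distance from the 5′ end of the gene in kb, with exons as blocks and miRNA genes as red lines, and the lower panel shows own-strand CPM of pup 1 and pup 3 along the cluster, with lines up to the mean. The members all sit in a large intron before the start of Clcn5-201, and Mir532 and Mir188 have higher levels than the 3 genes that follow them.

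The depth was 4906127 own-strand miRNA gene counts in pup 1 and 6238680 in pup 3, and a count of 0 leaves room for 0.611 CPM at most in pup 1 and for 0.481 CPM in pup 3 (3 counts of the total). Intervals and such floors cover counting error only, since reads without molecular identifiers are not independent molecules. The label of hindbrain was checked with short lists of marker miRNA genes, in which multi-copy genes lose the reads that match several places. All 4 genes of the Hox-linked list (Hox clusters are active in hindbrain and spinal cord) were at 2 CPM or more in both pups, with means between 17.6 and 28396 CPM and a sum of 52549 CPM in pup 1, against 34974 CPM in pup 3. Of the 7 counted neuronal genes 4 were detected, and the list summed to 15834 CPM in pup 1, against 14997 CPM in pup 3. Most of this came from Mir137 (mean 11351 CPM), and the list holds multi-copy Mir124a and Mir9 genes. Both genes of the choroid plexus list, Mir204 and Mir449a, were detected and summed to 14592 CPM in pup 1, against 13285 CPM in pup 3. This sum cannot be set against the neuronal one, which lacks reads of its multi-copy genes. The 4 counted muscle genes summed to 174 CPM in pup 1, against 159 CPM in pup 3, nearly all of it from Mir206 (mean 164 CPM), and the 2 of them at 0 are multi-copy genes, so that their zeros do not show absence. The 3 erythroid genes summed to 498 CPM in pup 1, against 308 CPM in pup 3, and the 3 kidney-linked genes to 274 CPM in pup 1, against 235 CPM in pup 3. These are bulk tissues, so fewer cells with a miRNA and less of it per cell cannot be told apart. Which cells of the hindbrain held the cluster's miRNAs was not measured.

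Every member of the cluster was detected, with at least 2 CPM in both pups, while 407 of all 1973 counted genes (20.6%) and 45 of the 120 on chromosome X were. Of the genes with a Mir symbol, as all members have, 403 of 1051 (38.3%) were detected. Together the 5 genes had 15529 counts in pup 1 and 19782 in pup 3. Their share of miRNA gene counts was 0.317% in pup 1 (exact Clopper-Pearson 95% interval 0.312 to 0.322) and 0.317% in pup 3 (0.313 to 0.322). The mean was 0.317% ± 0.000399 (SD, n = 2), or 3168 ± 3.99 CPM. On library totals the summed level thus matched between the pups to within counting error, and with TMM or DESeq2 scaling it was lower in pup 1. The single members did not all match.

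Mir532, the first gene of the cluster, gave 5485 reads, 1118 CPM, in pup 1 and 7394 reads, 1185 CPM, in pup 3 (exact Poisson 95% intervals 1089 to 1148 and 1158 to 1213 CPM). Its mean of 1152 ± 47.5 CPM was the highest of the cluster and the 7th highest on chromosome X. RefSeq listed only the 3p arm for this gene, so its other arm is not in the comparisons of mature sequences.

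Mir188, source of the miRNA linked to neuropilin-2, gave 4716 reads, 961 CPM, in pup 1 and 7547 reads, 1209.7 CPM, in pup 3 (intervals 934 to 989 and 1183 to 1237 CPM). Its mean of 1085 ± 176 CPM came next after Mir532. The order of these neighbours was not settled. Mir532 was 1.16-fold above Mir188 in pup 1, where their counting intervals lay apart. In pup 3 it was 0.980-fold of Mir188, and there the intervals overlapped, so that pup does not order them. Their ranges over the pups also overlapped.

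Mir362, which shares a seed with Mir329, was the lowest member, with 551 reads, 112 CPM, in pup 1 and 302 reads, 48.4 CPM, in pup 3 (intervals 103 to 122 and 43.1 to 54.2 CPM). Its mean was 80.4 ± 45.2 CPM. Although it lies between Mir188 and Mir501 on the host transcript, it had a lower level than both in each pup.

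Mir501, source of the miRNA linked to an AMPA receptor subunit, gave 3184 reads, 649 CPM, in pup 1 and 2593 reads, 416 CPM, in pup 3 (intervals 627 to 672 and 400 to 432 CPM). Its mean was 532 ± 165 CPM. Mir500, the last gene of the cluster, gave 1593 reads, 325 CPM, in pup 1 and 1946 reads, 312 CPM, in pup 3 (intervals 309 to 341 and 298 to 326 CPM), with a mean of 318 ± 9.03 CPM. Of the 5 members it had the smallest SD.

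**Figure D2:**
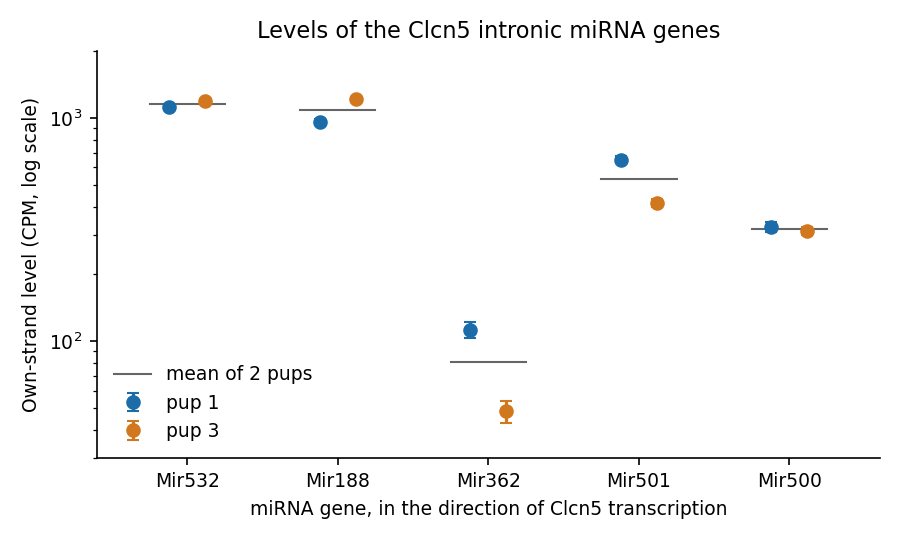
Own-strand level in CPM (log axis) of each member in pup 1 and pup 3, in the order of Clcn5 transcription. Points are single libraries with exact Poisson 95% intervals for counting error, and grey lines are means of 2 pups. Mir362 lies lowest, at 112 CPM in pup 1 and at 48.4 CPM in pup 3, below both of its neighbours in each pup.

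By mean level the order was Mir532, Mir188, Mir501, Mir500 and Mir362, with 14.3-fold between the first and the last. Apart from Mir532 and Mir188, each gene was above the next one in both pups without overlap. Mir188 was 1.48-fold above Mir501 in pup 1 and 2.91-fold in pup 3. Mir501 was 2.00-fold above Mir500 in pup 1 and 1.33-fold in pup 3, and Mir500 was 2.89-fold above Mir362 in pup 1 and 6.44-fold in pup 3. Ligation and amplification capture some small RNAs better than others, and these tables give no means to correct for it, so the order is one of read counts.

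On the whole list of miRNA genes by mean level, Mir532 ranked 100, Mir188 101, Mir501 138, Mir500 174 and Mir362 246. The median detected gene had 178 CPM, and 4 members were above it and Mir362 was below. On chromosome X, 6 miRNA genes had a higher mean than Mir532, namely Mir322, Mir1298, Mir98, Mir652, Mirlet7f-2 and Mir361. The nearest counted miRNA genes outside the host were far off and low. Mir1198, on the plus strand 488 kb from Clcn5, stood at 48.3 CPM in pup 1, and in pup 3 at 29.7 CPM, and Gm27360, 1082 kb away on the other side, had 0 counts in both. No read was counted on the strand opposite to any member in either pup.

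Between the pups, members of the same intron differed in opposite directions. Values are given as the ratio of CPM, pup 1 over pup 3, with an exact conditional binomial 95% interval for counting error, and no p-value is given, as each pup has 1 library. Mir362 was 2.32-fold (interval 2.01 to 2.68) and Mir501 1.56-fold (1.48 to 1.65) higher in pup 1. Mir500 had a ratio of 1.04 (0.974 to 1.11), and Mir532 of 0.943 (0.911 to 0.977). Mir188 was lower in pup 1, with a ratio of 0.795 (0.766 to 0.824). For Mir500 the interval includes 1, and for the other members the difference was larger than counting error alone.

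At the 2-fold level used to call a difference, with a pseudocount of 1 CPM, 1 of the 5 members was called, Mir362, at a log2 difference of 1.20. Of the 407 detected genes, 29 (7.13%) were called in either direction, and 28 (6.88%) were called as higher in pup 1. The rule for the members used these same counts, so nothing is read from the share of called members. Detected genes as a whole leaned to pup 1, with a median log2 difference of 0.14 and 262 of 407 higher in pup 1. TMM scaling lowered the log2 differences by a median of 0.13 and DESeq2 size factors by a median of 0.23. On these scalings Mir362 stood at 1.06 and 0.97, so that it was no longer called with DESeq2 size factors, on which 23 of 407 detected genes (5.65%) were called, against 25 (6.14%) with TMM. At 1.5-fold on library totals 78 of the 407 genes (19.2%) were called, among them Mir362 and Mir501. With detection at 10 CPM, 18 of 307 genes (5.86%) were called at 2-fold, among them Mir362. With TMM and DESeq2 scaling, in that order, Mir501 stood at log2 differences of 0.51 and 0.41, and Mir500 turned to -0.08 and -0.17. On the same scalings Mir532 stood at -0.22 and -0.31, and Mir188 at -0.47 and -0.56. The summed cluster, level between the pups on library totals, became lower in pup 1, at log2 differences of -0.14 and -0.23.

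**Figure D3:**
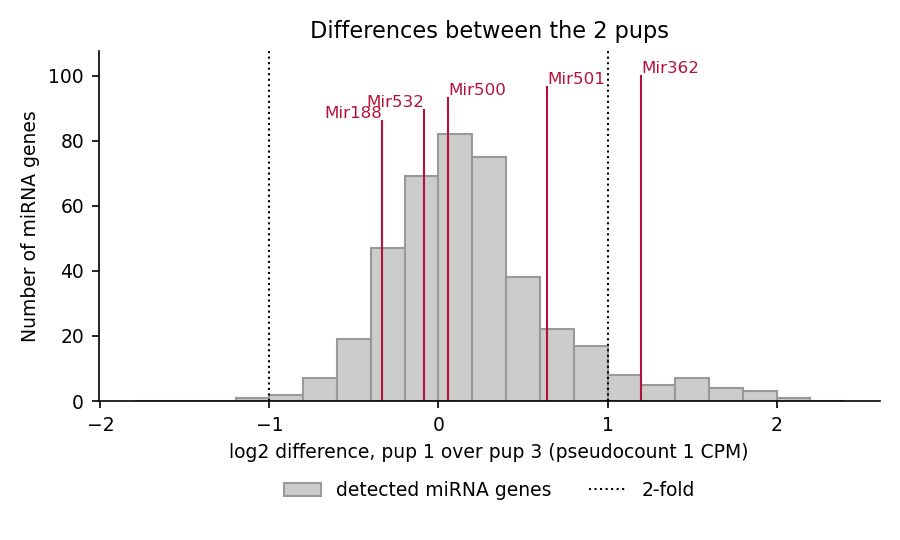
Log2 differences of CPM, pup 1 over pup 3, of the 407 detected miRNA genes as a histogram, with the 5 members as red lines and 2-fold as dotted lines. Mir188 and Mir532 lie to the left of 0 and Mir362 lies beyond the 2-fold line on the right, at 1.20.

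The make-up of the cluster, which no scaling of whole libraries changes, differed accordingly. Mir532 and Mir188 gave 65.7% of the cluster's reads in pup 1 (exact Clopper-Pearson 95% interval 64.9 to 66.4) and 75.5% in pup 3 (74.9 to 76.1), a mean of 70.6% ± 6.96 (SD, n = 2). Mir501 gave 20.5% in pup 1 and 13.1% in pup 3. Mir500 gave 10.3% in pup 1 and 9.84% in pup 3, and Mir362 gave 3.55% in pup 1 and 1.53% in pup 3. Mir501, Mir500 and Mir362 together summed to 1086 CPM in pup 1, against 776 CPM in pup 3. Mir532 with Mir188 summed to 2079 CPM in pup 1, against 2395 CPM in pup 3. The highest member stood 9.95-fold above the lowest in pup 1 and 25.0-fold in pup 3. Between the same libraries the Hox-linked sum was 52549 CPM in pup 1, against 34974 CPM in pup 3, and the erythroid sum 498 CPM in pup 1, against 308 CPM in pup 3. The part of these marker differences in those of the members was not tested.

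The 2 hosts listed for comparison were Htr2c, a serotonin receptor gene that is also on chromosome X and holds miRNAs in introns, and Mcm7. The 5 counted Htr2c genes of that list were all detected and summed to 7667 ± 997 CPM (n = 2), against 3168 ± 3.99 CPM for the Clcn5 members. They ran from 6271 ± 1002 CPM for Mir1298 down to 16.4 ± 3.83 CPM for Mir1912, a 383-fold spread of means, against 14.3-fold in Clcn5. Between these ends stood Mir448 at 713 ± 9.57 CPM, Mir1264 at 636 ± 12.1 CPM and Mir764 at 30.4 ± 6.66 CPM. Mcm7, a replication gene on another chromosome, hosts Mir93 at 5030 ± 676 CPM, Mir106b at 4768 ± 613 CPM and Mir25 at 429 ± 31.1 CPM, an 11.7-fold spread. In these hosts too the direction between the pups was mixed, with 2 of 5 Htr2c genes and 1 of 3 Mcm7 genes higher in pup 1, none of them past 2-fold. The log2 differences of the Mcm7 genes covered a range of 0.54, on 1 library per pup and with no test.

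**Figure D4:**
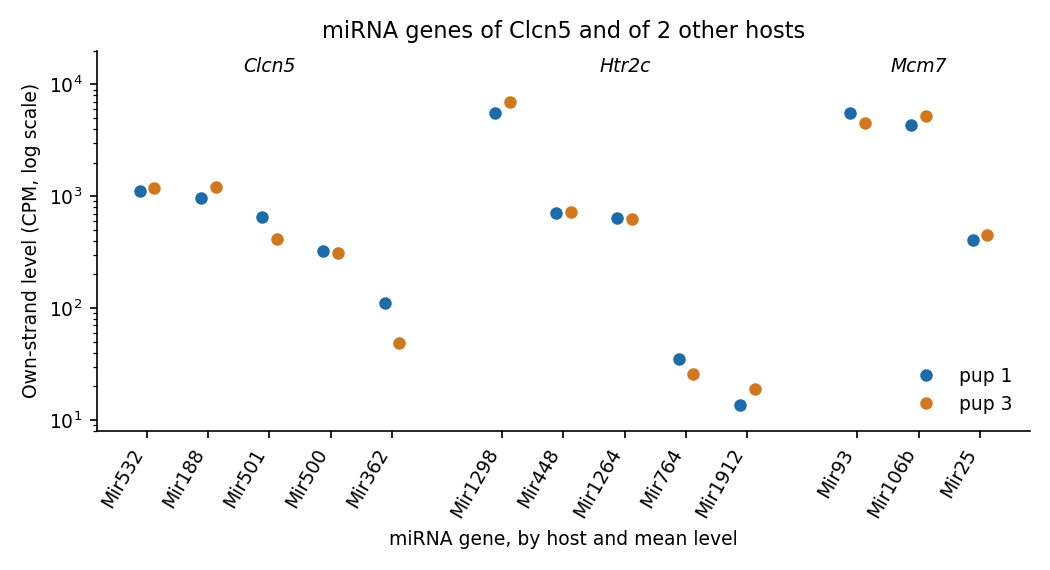
Own-strand level in CPM (log axis) of each miRNA gene of Clcn5, Htr2c and Mcm7 in pup 1 and pup 3, ordered by mean level within a host. The Clcn5 members lie between 48.4 CPM and 1209.7 CPM in single pups, while Mir1298 of Htr2c and Mir93 and Mir106b of Mcm7 lie well above all of them.

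Over the whole table, 8 protein-coding genes held 3 or more counted miRNA genes in introns on their own strand, outside any annotated exon. Clcn5 ranked 4th of them by summed level, after Htr2c, Sfmbt2 and Cdc20b, and it was 1 of 3 with every counted gene detected, with Cdc20b and Ttll10. Sfmbt2 holds 107 counted genes, 10 of them detected, and many are numbered copies of a few miRNAs. Reads that match several places were not assigned to a gene, so its sum, detected share and spreads are less certain than those of Clcn5. Of the 5 such hosts with 3 or more detected genes, Clcn5 had a spread of 14.3-fold between highest and lowest detected gene and Ttll10 of 11.1-fold. Sfmbt2, Cdc20b and Htr2c had spreads of 284-fold, 867-fold and 1345-fold. For Htr2c this includes Gm22650 (mean 4.66 CPM), which is not in the list compared above. The lowest Cdc20b gene was Mir449b (mean 5.18 CPM). Both lie close to the detection level of 2 CPM, so these 2 spreads depend on that level. Between the pups the log2 differences of the detected genes covered a range of 2.07 in Sfmbt2, with 10 detected genes, 1.53 in Clcn5, 0.89 in Htr2c, 0.69 in Cdc20b and 0.50 in Ttll10. The Clcn5 range was thus neither the widest of these 5 nor the narrowest. Mcm7 is not in this count because 2 of its 3 miRNA genes overlap an annotated exon.

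With 2 libraries, likeness to other genes can be judged on level alone. By distance of log2(CPM + 1) over the 2 libraries, the detected genes closest to Mir532 were Mir27b (0.14) and Mir337 (0.19), and the same genes were closest to Mir188 (0.16 and 0.24). Mir27b stood at 1041 CPM in pup 1, and in pup 3 at 1115 CPM. Closest to Mir500 were Mir540 (0.06) and Mir666 (0.13), closest to Mir501 were Mir485 (0.29) and Mir9-3 (0.29), and closest to Mir362 were Mir3102 (0.39) and Mir106a (0.41). Of these, Mir3102 stood at 147 CPM in pup 1, and in pup 3 at 51.1 CPM.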

How the data were processed

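For each library the authors deposited a table of raw counts, 1 row per miRNA gene, with columns for any strand, the gene's own strand and the opposite strand. The build was mm10 with annotation M4, per the deposited text files. The sources used here do not name the aligner or counter. Rows for unmapped reads (17.7% in pup 1 and 13.9% in pup 3), reads at several places (37.9% and 39.4%) and reads in no feature (2.66% and 1.59% on either strand) were left out of totals. Own-strand counts were used. Identifiers were matched to GENCODE M21, with 1894 of 1973 matched, and mature and hairpin sequences by symbol to RefSeq (GRCm38.p6), with all 5 members matched. Levels are CPM on own-strand totals.

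The series has 1 group, so no model was fitted and edgeR's quasi-likelihood test was not run. edgeR 4.0.16 (TMM) and DESeq2 1.42.0 gave alternative scalings, Python 3.11.15 with scipy 1.17.1 the intervals and RNAfold 2.7.2 the folds. Intervals and calls were tried on simulated Poisson counts, which hold no variation between animals or from amplification. That checks the calculation and does not show how often a 2-fold call would arise between pups. Detection was 2 CPM in both pups, and a call was a 2-fold difference with a pseudocount of 1 CPM. Alternatives covered scaling, strand, detection level, fold, pseudocount and each pup alone. Members and lists were chosen with earlier results of these data known. Named genes are the members, the listed genes of 2 other hosts, detected seed relatives, the 2 genes closest in level to each member and the nearest counted miRNA genes; the X-linked genes above Mir532 and the other intronic hosts were named after their values were seen.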

Additional observations from a re-analysis of the deposited data

How the results depend on the processing

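With reads of either strand, the summed share of the cluster was 0.307%, and out of all reads it was 0.133%, a change of denominator, since the members have no opposite-strand reads. With each pup alone the share ran from 0.3165 to 0.3171%. The order by CPM was the same under both other scalings, either-strand counts and all reads. These change only the denominators, so no members but Mir532 and Mir188 could have changed places. With each pup alone, 3 to 5 members kept their place, as Mir188 stood above Mir532 in pup 3, though with overlapping counting intervals. The highest member then stood 9.95-fold to 25.0-fold above the lowest. At 1.5-fold, 78 of 407 genes (19.2%) were called, 2 of them members (Mir362 and Mir501), and with DESeq2 size factors 23 genes (5.65%), 0 of them members. At 10 CPM for detection 18 of 307 genes were called, 1 of them a member. The log2 difference of the summed cluster was -0.003 on totals, -0.14 with TMM and -0.23 with DESeq2 size factors, alternatives added after the data were seen. All 5 members remained detected at 1 and 10 CPM, and 4 at 100 CPM, where Mir362 was lost. Mir362, with 302 reads in pup 3, is the member that depth limits most. The stretch of 16 bases changed nothing. No paired analysis was possible because there is 1 group.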

Other observations

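Mir532 and Mir188, 345 bases apart, were nearly equal in level, a pattern chosen after their values were seen. Their means differed 1.06-fold, whereas the median was 5.92-fold over 66 other neighbouring pairs of detected miRNA genes within 1000 bases on the same strand, of which 1 pair differed less. These are ratios of means over the pups. In single pups the ratio of Mir532 to Mir188 was 1.16 in pup 1 and 0.980 in pup 3. In pup 3 their counting intervals overlapped, so a change of order is not shown. Mir362 and Mir501, 630 bases apart, differed 6.62-fold, with 34 of those pairs differing less and 32 differing more. Pairs share libraries and often a transcript, so this is a description without a test.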
